A study of Mus musculus with 7 samples.

Results

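*Otud1*, *Fbxo30* and 5 further ubiquitin ligase genes that are known from muscle atrophy or belong to the same F-box family (*Fbxo32*, *Trim63*, *Fbxo40*, *Fbxo31* and *Fbxo21*) were followed in thoracic aortas of *Col3a1+/G182R* and *Col3a1+/+* mice. These are 7 of the 55487 genes in the files. *Otud1* and *Fbxo30* were selected on their clear rise in *Col3a1+/G182R* aortas in these same libraries, so their change is described here without a test, whereas the other 5 were chosen by name. Earlier results of these data were known when those 5 and the gene lists below were chosen. The libraries came from 3 *Col3a1+/G182R* mice, heterozygous for a knock-in glycine-to-arginine substitution in the triple helix of type III collagen of the kind that causes vascular Ehlers-Danlos syndrome in people, and from 4 *Col3a1+/+* mice. All mice were C57BL/6 by the labels (C57BL/6J by the study), 7 weeks old and, by the study's methods, male, and no treatment is given for them. RNA was taken from thoracic aorta with its mixed cell types, with 1 library per mouse. In such tissue, fewer cells of a type and less RNA per cell cannot be told apart.

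Ubiquitin ligases attach the small protein ubiquitin to chosen proteins, often marking them for the proteasome, and deubiquitinases take it off again. In SCF ligases, an F-box protein holds the target while Skp1, *Cul1* and *Rbx1* form the common frame. Wasting skeletal muscle is known for inducing a small set of these genes. *Fbxo32* (atrogin-1) and *Trim63* (MuRF1, a RING-finger ligase) are the classical pair, switched on by FoxO factors and glucocorticoids and held back by insulin signaling. *Fbxo30* (MUSA1) and *Fbxo21* (SMART) joined them later, and BMP signaling is known to restrain *Fbxo30* in muscle. *Fbxo40* is a striated-muscle F-box protein that targets the insulin receptor substrate *Irs1*, and *Fbxo31* targets cyclin D1. *Otud1* is a deubiquitinase of the OTU family that prefers lysine-63-linked chains.

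The tissue was checked against marker genes. The 8 smooth muscle markers were abundant, with a summed level of 23920.5 to 25652.4 TPM in *Col3a1+/G182R* and 17547.2 to 28610.5 TPM in *Col3a1+/+* libraries, and none had a mean under 1 TPM (TPM is RSEM's level per length, scaled to the same total in each library). Skeletal muscle markers were near the floor, at summed levels of 13.9 to 18.58 TPM in *Col3a1+/G182R* and 22.89 to 31.08 TPM in *Col3a1+/+* over 12 genes. Of these 12 genes, 8 had a mean under 1 TPM and 1, the fast myosin *Myh4*, was listed at 0 in every library. The 8 cardiac markers summed to 24.52 to 25.99 TPM in *Col3a1+/G182R* and 27.23 to 129.51 TPM in *Col3a1+/+*, so that both striated-muscle sums were lower in every *Col3a1+/G182R* library. The 6 macrophage markers summed to 167.59 to 472.18 TPM in *Col3a1+/G182R* and 123.3 to 196.8 TPM in *Col3a1+/+*. These sums overlapped, but all 6 macrophage genes had a positive log2 fold change, with a median of 0.79. An unadjusted edgeR p below 0.05 was found for 5 of them, while 0 passed after adjustment and 1 (*Lyz2*) was called by DESeq2. Over all 15688 tested genes, 7946 had a positive log2 fold change, 9.57% were higher at an unadjusted p under 0.05, and DESeq2 called 314 higher. Libraries held 18820015 to 23953746 counts in *Col3a1+/G182R* and 13693861 to 21634680 in *Col3a1+/+*. *Col3a1+/+* mouse 4, the shallowest, lay farthest out on the first principal component, which carried 43.3% of the variance, and the fold changes of the 7 genes, the list medians, the counts of calls and the gene lengths were also computed without it and without each other library.

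Because *Otud1* and *Fbxo30* rose together and *Trim63* was nearly silent, sequence upstream of their starts is shown, from the RefSeq promoter table (GRCm38.p6, plus strand). Capitals mark matches to a FoxO motif (GTAAACA, either strand) and to the GC box (GGGCGG, either strand). The stretches were chosen after the matches were known and leave out annotated exons.
*Otud1*, chr2:19657481-19657730: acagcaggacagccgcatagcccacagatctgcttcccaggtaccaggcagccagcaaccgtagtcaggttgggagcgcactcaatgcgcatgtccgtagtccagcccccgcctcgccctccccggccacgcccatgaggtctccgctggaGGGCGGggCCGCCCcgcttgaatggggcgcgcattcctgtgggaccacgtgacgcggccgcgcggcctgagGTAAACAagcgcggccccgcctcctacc
*Fbxo30*, chr10:11281501-11281586: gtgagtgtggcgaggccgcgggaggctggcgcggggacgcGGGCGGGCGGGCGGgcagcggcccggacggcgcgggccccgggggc
*Trim63*, chr4:134314896-134314962: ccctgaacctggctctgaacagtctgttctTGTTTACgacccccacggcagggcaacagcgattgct
The *Fbxo30* stretch lies between the first exons of its 2 annotated transcripts, and the *Trim63* stretch is part of the window before its start at 134315120. Over windows of 250 bases before to 50 bases after each start, 6 of the 7 genes had an entry, and *Fbxo32* had none. A FoxO match was found for *Otud1* and *Trim63*, 1 each, and for none of the other 4, whereas 3.65% of 32851 promoters held one. GC boxes, present in 35.7% of promoters, numbered 4 for *Otud1*, 5 for *Fbxo30*, 4 for *Fbxo31* and 3 for *Fbxo21*, with overlapping matches counted, and none was found for *Trim63* or *Fbxo40*. *Trim63* and *Fbxo40* each held 1 glucocorticoid receptor half-site (TGTTCT, in 19.0% of promoters), and *Trim63* alone among the 6 held TATAAA (in 13.6%). CCAAT (in 37.4%) was found for *Fbxo30* and *Fbxo40*. No match was found among the 6 genes for AP-1 (TGANTCA), CRE (TGACGTCA), heat shock (GAANNTTC) or NF-kB (GGGANTTCC) motifs. A match is a string of letters and not a binding site.

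Per length, *Fbxo30* was the most abundant of the 7 transcripts in both genotypes. In *Col3a1+/G182R* aortas the order by mean TPM was *Fbxo30* (114 ± 4.92), *Fbxo32* (41.2 ± 10.4), *Otud1* (34.7 ± 2.79), *Fbxo40* (28.01 ± 12.2), *Fbxo31* (18.9 ± 3.57), *Fbxo21* (16.3 ± 2.40) and *Trim63* (0.030 ± 0.026) (SD, n = 3). In *Col3a1+/+* aortas it was *Fbxo30* (44.2 ± 8.88), *Fbxo32* (29.9 ± 12.9), *Fbxo40* (21.9 ± 3.33), *Fbxo31* (21.9 ± 3.48), *Fbxo21* (14.2 ± 2.24), *Otud1* (13.8 ± 2.08) and *Trim63* (0.070 ± 0.082) (SD, n = 4). *Otud1* thus stood at rank 3 in *Col3a1+/G182R* and at rank 6 in *Col3a1+/+*. Within *Col3a1+/G182R*, neighbours from *Fbxo32* down to *Fbxo21* had overlapping ranges, and only *Fbxo30* above *Fbxo32* and *Trim63* below *Fbxo21* stood clear. Within *Col3a1+/+*, the only neighbours without overlap were *Fbxo31* above *Fbxo21* and *Trim63* below *Otud1*.

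**Figure D1:**
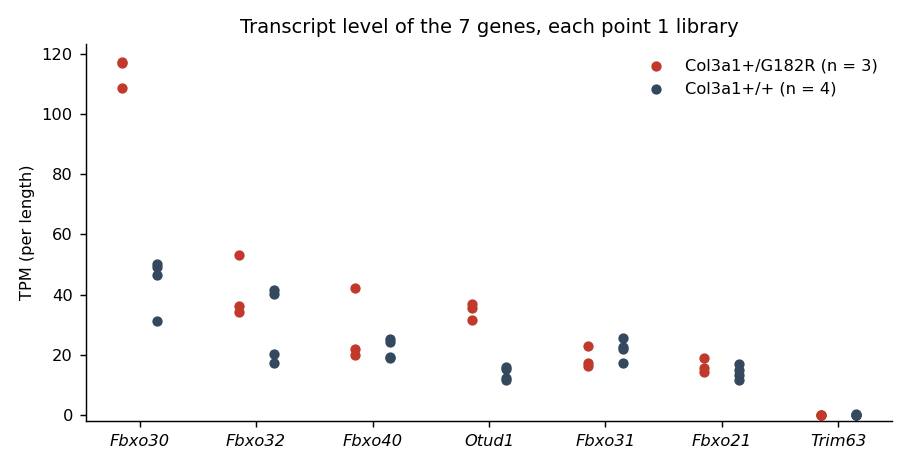
Level per length (TPM, vertical axis) of the 7 genes, ordered by their mean over all libraries, with 1 point per library. The 3 *Col3a1+/G182R* libraries (red) lie between 108.78 and 117.48 TPM for *Fbxo30* and the 4 *Col3a1+/+* libraries (blue-grey) between 31.1 and 50.22 TPM, while *Trim63* does not exceed 0.16 TPM in any library.

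*Otud1* was measured at 69.0, 62.9 and 66.0 CPM in the 3 *Col3a1+/G182R* libraries, against 29.0, 24.9, 31.8 and 22.5 CPM in the 4 *Col3a1+/+* libraries (CPM, the count divided by library size after TMM scaling, is not a level per length). The lowest *Col3a1+/G182R* library was well above the highest *Col3a1+/+* library. The means were 65.9 ± 3.08 CPM in *Col3a1+/G182R* and 27.0 ± 4.18 CPM in *Col3a1+/+* (SD, n = 3 and 4), and the fitted log2 fold change was 1.29 with a standard error of 0.14, or 2.44-fold. The gene (ENSMUSG00000043415, chromosome 2, 19657752 to 19660583, plus strand, GRCm38 in GENCODE M21) has 1 annotated transcript.

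*Fbxo30* had 268, 254 and 236 CPM in *Col3a1+/G182R* libraries, against 110, 125, 128 and 94.3 CPM in *Col3a1+/+* libraries. Here too every *Col3a1+/G182R* library was above every *Col3a1+/+* library. The means were 253 ± 16.1 CPM in *Col3a1+/G182R* and 115 ± 15.7 CPM in *Col3a1+/+* (SD, n = 3 and 4), with a log2 fold change of 1.14 and a standard error of 0.14, or 2.21-fold. *Otud1* and *Fbxo30* were 2 of the 6 genes past an adjusted p of 0.05 in edgeR's quasi-likelihood test over 15688 genes (0.0382%), and they were selected for this. When any 1 of 5 libraries (each *Col3a1+/G182R* mouse and *Col3a1+/+* mice 2 and 3) was left out, edgeR called 0 genes, these 2 included, while 1830 to 3315 genes had an unadjusted p below 0.05. Without *Col3a1+/+* mouse 4 the log2 fold changes were 1.20 for *Otud1* and 1.05 for *Fbxo30*. Over all alternative settings they ran from 1.20 to 1.37 for *Otud1* and from 1.05 to 1.39 for *Fbxo30*.

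**Figure D2:**
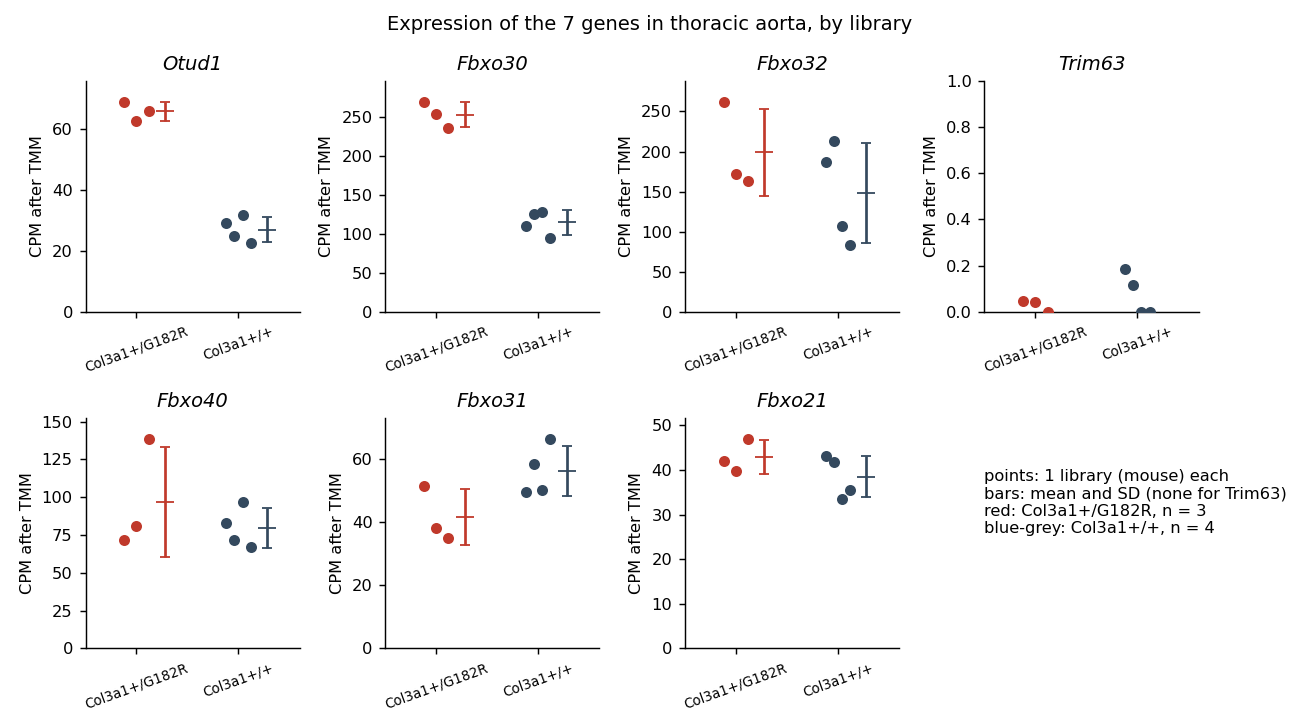
CPM after TMM scaling (vertical axes, each starting at 0) of the 7 genes in *Col3a1+/G182R* (red, n = 3) and *Col3a1+/+* (blue-grey, n = 4) libraries, with the mean and SD beside the points. *Otud1* and *Fbxo30* separate the genotypes by library, the points of *Fbxo32*, *Fbxo40*, *Fbxo31* and *Fbxo21* overlap, and *Trim63* lies at or near 0.

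The 2 annotated transcripts of *Fbxo30* (ENSMUSG00000047648, chromosome 10, 11281330 to 11298052, plus strand) share the same 2238 coding bases in exons 2 and 3. They differ in the first exon and at the end: the 3′ UTR is 101 bases in Fbxo30-201, which is 2492 bases long, and 2635 bases in Fbxo30-202, which is 5060 bases long. RSEM gives for each gene and library a length averaged over transcripts by abundance, and this length was not used to choose the genes. For *Fbxo30* it was 3321.96, 3303.95 and 3178.34 bases in *Col3a1+/G182R* libraries, against 3426.11, 3456.35, 3745.24 and 4403.96 bases in *Col3a1+/+* libraries. All 3 *Col3a1+/G182R* libraries were thus shorter than all 4 *Col3a1+/+* libraries. The difference of the means was -490 bases, and it did not pass an exact permutation test over the 35 splits (two-sided p = 0.0857, adjusted p = 0.171 over 4 genes). Without *Col3a1+/+* mouse 4, which had the longest value, it was -274 bases, and the genotypes still did not overlap. With 3 libraries against 3, the exact permutation test has too few splits for any length to pass. Its adjusted p of 0.2 therefore decides nothing. The length rose in the order of the first principal component: -35.2, -33.0 and -25.1 in *Col3a1+/G182R* mice 3, 2 and 1, then -11.2, 7.72, 31.2 and 65.6 in *Col3a1+/+* mice 1 to 4. Within *Col3a1+/+* it also rose as depth fell, from 21634680 counts in mouse 1 to 13693861 in mouse 4. That component separates the genotypes as well, and its part was not tested.

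With only 2 transcripts the averaged length gives their shares, a calculation chosen after the lengths had been seen. The long transcript made up 32.3, 31.6 and 26.7% of *Fbxo30* TPM in *Col3a1+/G182R* libraries, against 36.4, 37.6, 48.8 and 74.5% in *Col3a1+/+* libraries. The short transcript accounted for 79.3, 74.4 and 86.1 TPM in *Col3a1+/G182R* libraries, against 31.2, 31.4, 23.8 and 7.95 TPM in *Col3a1+/+* libraries. The long transcript stood at 37.8, 34.4 and 31.4 TPM in *Col3a1+/G182R* libraries, against 17.9, 18.9, 22.6 and 23.2 TPM in *Col3a1+/+* libraries. Both transcripts were therefore higher in every *Col3a1+/G182R* library, with a ratio of means of 3.39 for the short and 1.67 for the long transcript, and no test is given because the gene was chosen for its rise. As the short transcript gives fewer fragments per molecule, the fold change depends on whether length is used: with the effective length as an offset, the log2 fold change of *Fbxo30* was 1.33. These shares are RSEM's estimates from short reads, and their error is not in the files.

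**Figure D3:**
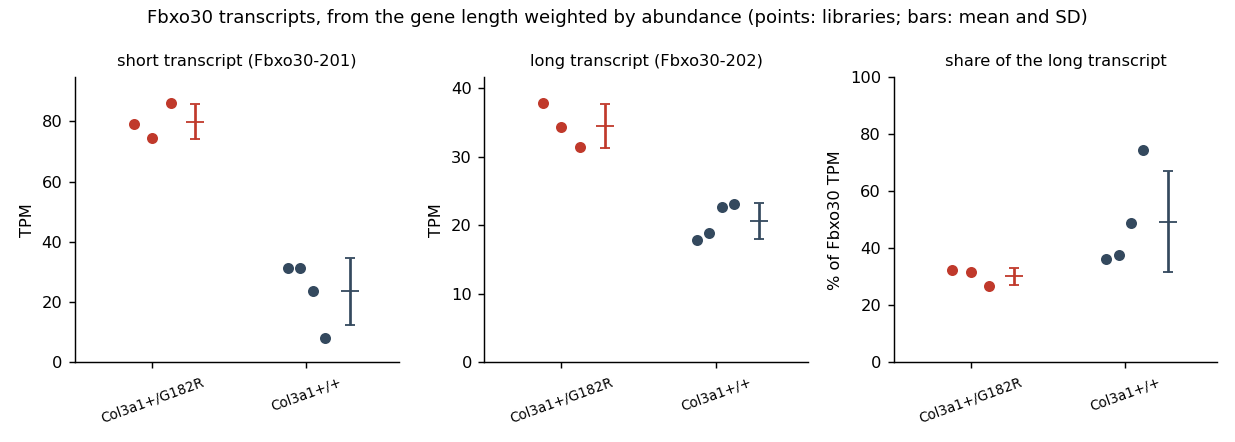
Estimated TPM of the short and of the long *Fbxo30* transcript and the share of the long one in percent (vertical axes), by library, for *Col3a1+/G182R* (red, n = 3) and *Col3a1+/+* (blue-grey, n = 4), with mean and SD. The short transcript averages 79.9 TPM in *Col3a1+/G182R* and 23.6 TPM in *Col3a1+/+*, the long one 34.5 and 20.6 TPM, and the *Col3a1+/+* library with the highest share of the long transcript (74.5%) is mouse 4.

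The averaged lengths of *Fbxo31* were likewise shorter in every *Col3a1+/G182R* library than in every *Col3a1+/+* library. They were 3250.57, 3311.26 and 3186.11 bases in *Col3a1+/G182R* libraries, against 3348.84, 3670.95, 3913.04 and 3764.16 bases in *Col3a1+/+* libraries, with no overlap. The difference of -425 bases did not pass the test either (exact permutation test, p = 0.0571, adjusted p = 0.171, and the smallest p this design can give is 0.0286). The averaged lengths of *Fbxo40* (difference -7.27 bases, exact permutation p = 0.371) and *Fbxo21* (10.5 bases, exact permutation p = 0.886) overlapped between the genotypes. Among 11603 genes with at least 10 counts and a length that varies, 7.83% had lengths that did not overlap and were shorter in *Col3a1+/G182R*, against 2 of the 4 genes tested here. *Otud1* and *Fbxo32* have a single transcript, and *Trim63* was left out because some libraries had no read of it.

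*Fbxo32*, the classical atrophy F-box gene (ENSMUSG00000022358, chromosome 15, 58175879 to 58214932, minus strand), was well expressed but varied among mice of both genotypes. It had 262, 172 and 164 CPM in *Col3a1+/G182R* libraries, against 187, 214, 106 and 83.6 CPM in *Col3a1+/+* libraries. The ranges overlapped, since *Col3a1+/+* mice 1 and 2 were above 2 of the 3 *Col3a1+/G182R* mice. The means of 199 ± 54.4 CPM in *Col3a1+/G182R* and 148 ± 62.5 CPM in *Col3a1+/+* (SD, n = 3 and 4) gave a log2 fold change of 0.43 with a standard error of 0.31, and edgeR's adjusted p was 0.445. The value rested on single mice, at 0.17 without *Col3a1+/G182R* mouse 1, 0.23 without *Col3a1+/+* mouse 4 and 0.66 without *Col3a1+/+* mouse 2. An opposite-strand gene, *Gm15943*, overlaps 458 of its bases and was at 0.35 to 1.43 TPM over the 7 libraries.

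*Trim63*, the muscle RING-finger ligase (ENSMUSG00000028834, chromosome 4, 134315120 to 134329629, plus strand), had 1, 1 and 0 counts in *Col3a1+/G182R* libraries, against 4, 2, 0 and 0 counts in *Col3a1+/+* libraries. All but 1 of these values are at or under 3 counts, the limit that a count of 0 allows, so no fold is given and the gene did not pass the filter on low counts. A difference between genotypes was not detectable at this depth. *Trim54* and *Trim55*, the other MuRF genes, likewise failed the filter. The aortas thus held *Fbxo32* at 17.24 to 53.24 TPM and *Trim63* at up to 0.16 TPM, beside the skeletal marker sums of 13.9 to 31.08 TPM given above. The 2 *Trim63* counts above 1 came from *Col3a1+/+* mice 1 and 2, the libraries with the 2 highest cardiac marker sums (129.51 and 78.69 TPM). The part of those cells in the counts was not tested.

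*Fbxo40*, the ligase of *Irs1* in striated muscle (ENSMUSG00000047746, chromosome 16, 36963460 to 36990467, minus strand), had 71.5, 80.9 and 139 CPM in *Col3a1+/G182R* libraries, against 82.7, 71.7, 96.6 and 67.4 CPM in *Col3a1+/+* libraries. *Col3a1+/G182R* mouse 3 was the highest of all and the other two *Col3a1+/G182R* mice lay within the *Col3a1+/+* range. The log2 fold change was 0.28 with a standard error of 0.23 (edgeR adjusted p = 0.485), and without *Col3a1+/G182R* mouse 3 it was -0.072 (adjusted p = 0.869). That mouse also had the highest macrophage (472.18 TPM), adipocyte (4619.84 TPM) and endothelial (209.42 TPM) marker sums, whose part was not tested. Its level of 19.89, 22.05 and 42.08 TPM in the *Col3a1+/G182R* libraries was above the sum of all 12 skeletal markers in the same libraries, 18.58, 13.9 and 17.76 TPM. In *Col3a1+/+* mice 1 to 4 the gene stood at 24.32, 19.11, 25.24 and 18.99 TPM beside skeletal sums of 22.89, 23.19, 25.23 and 31.08 TPM, so it was below the sum in mice 2 and 4. *Fbxo40* is also the closest match of *Fbxo30* among the 7 genes, the other F-box-only genes and the OTU-family genes: 39.9% of 665 aligned residues were identical between the 2 proteins. *Fbxo32* matched *Fbxo25* most closely, at 61.4% of 352 aligned residues.

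*Fbxo31* and *Fbxo21* did not pass the test either. *Fbxo31*, known for targeting cyclin D1 and MDM2 (ENSMUSG00000052934, chromosome 8, 121549440 to 121578806, minus strand), had 51.5, 38.2 and 35.03 CPM in *Col3a1+/G182R* libraries, against 49.5, 58.3, 50.1 and 66.3 CPM in *Col3a1+/+* libraries. Only *Col3a1+/G182R* mouse 1 lay within the *Col3a1+/+* range, and the other two were below it. The log2 fold change was -0.43 with a standard error of 0.17 (edgeR adjusted p = 0.203), and with the length offset it was -0.24. The opposite-strand gene *Gm20388* covers the whole of *Fbxo31* and stood at 69.7 to 94.6 TPM. The kit marks strand, but the strand setting of the counting is not given in the sources used here, so reads of the 2 genes may be shared and the value is uncertain.

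*Fbxo21*, an atrophy-induced F-box gene (ENSMUSG00000032898, chromosome 5, 117976730 to 118010201, plus strand), had the smallest fold change of the members that passed the filter. It had 42.0, 39.8 and 47.0 CPM in *Col3a1+/G182R* libraries, against 43.1, 41.7, 33.6 and 35.5 CPM in *Col3a1+/+* libraries, with overlapping ranges. The log2 fold change was 0.16 with a standard error of 0.13 (edgeR adjusted p = 0.503). Of the 7 genes, only the 2 that were selected on their rise were past the threshold or had CPM values that did not overlap, a state reached by 10.1% of the 15688 genes in the higher and 10.8% in the lower direction. None of the 4 other tested genes passed with DESeq2 either, which called 723 genes (4.61%).

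The genes whose log2 CPM most resembled each gene over the 7 libraries, given for the 6 that passed the filter, are a description of these libraries, which share genotype and depth. For *Otud1* they were *Gpkow* (Pearson r = 0.987), *Lurap1l* (0.985), *Fbxo30* (0.980), *Ube3a* (0.977) and *Mtf1* (0.975). For *Fbxo30* they were *Fam126b* (0.991), *Otud1* (0.980), *Gpkow* (0.976), *Zbtb20* (0.972) and *Ube3a* (0.972). After each genotype's mean was removed, r between *Otud1* and *Fbxo30* was 0.641, so much of the likeness over 7 libraries lies between the genotypes. Neither resembled *Fbxo32* as closely over the 7 libraries: r was 0.504 for *Otud1* and 0.574 for *Fbxo30*. Since *Otud1* and *Fbxo30* were both selected on their rise, these values cannot say whether the pair varies together more closely. With each genotype's mean removed, r with *Fbxo32* was 0.2315 for *Otud1* and 0.551 for *Fbxo30*, beside the 0.641 of the pair.

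*Fbxo32* was most like an identifier with no symbol in GENCODE M21 (ENSMUSG00000118651, 0.994), *Fam171b* (0.990), *Zfp266* (0.987), *Fmo5* (0.987) and *Zc4h2* (0.984). Among the genes most like *Fbxo40* were the immediate early receptor *Nr4a3* (0.974), the sarcomere gene *Myoz2* (0.974), the chaperone gene *Hspa8* (0.973) and *Nfatc2* (0.963), and r between *Fbxo40* and *Fbxo31* was -0.772. *Fbxo31* was most like *D430040D24Rik* (0.994), *Cacnb3* (0.989), *Ctc1* (0.989), *Pck2* (0.988) and *Trim46* (0.986). *Fbxo21* was most like *Xylt1* (0.979), *Frat1* (0.977), *Mia2* (0.972), *Prdm2* (0.970) and *2810006K23Rik* (0.967).

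In the families of the 2 selected genes, no other gene passed edgeR's test. Of 31 other F-box-only genes 25 were tested, and their median log2 fold change was 0.035, against 0.0077 over all genes. By edgeR 0 of the 25 were called, with 4 higher and 1 lower (16% and 4%) at an unadjusted p under 0.05, beside 9.57% higher and 10.8% lower over all genes. The smallest p-values belonged to *Fbxo34* (27.2, 27.0 and 30.6 CPM in *Col3a1+/G182R*, against 21.5, 16.1, 22.2 and 17.4 CPM in *Col3a1+/+*, log2 fold change 0.55), *Fbxo17* (-0.59) and *Fbxo8* (0.60). DESeq2 called *Fbxo34* higher (adjusted p = 0.0393) and *Fbxo17* lower (0.0490), and *Fbxo8* missed its threshold (0.0682). The CPM values of 8 of the 25 were above those of every *Col3a1+/+* library and those of 2 were below, that is 32% and 8%, beside 10.1% and 10.8% over all genes. No log2 fold change among the 25 reached 1.

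Of 14 other OTU-family deubiquitinases 12 were tested, with a median log2 fold change of -0.036. Here edgeR called 0, and 2 were higher and 1 lower (16.7% and 8.33%) at an unadjusted p under 0.05, beside 9.57% and 10.8% over all genes. *Vcpip1*, which works with the p97 ATPase at the Golgi, had 39.6, 43.0 and 40.1 CPM in *Col3a1+/G182R* libraries, against 28.6, 25.7, 21.1 and 17.9 CPM in *Col3a1+/+* libraries. Its values did not overlap, with a log2 fold change of 0.81 (edgeR adjusted p = 0.119, DESeq2 adjusted p = 0.00185). *Otud5*, a regulator of innate immune signaling, had 67.0, 60.4 and 68.6 CPM in *Col3a1+/G182R* libraries, against 77.1, 86.0, 104 and 126 CPM in *Col3a1+/+* libraries (log2 fold change -0.59, edgeR adjusted p = 0.165, DESeq2 adjusted p = 0.0445). *Otud6b* had a log2 fold change of 0.52 and passed in neither (edgeR adjusted p = 0.245).

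No gene of the common frame of SCF ligases passed either test. The list held *Skp1a*, *Cul1*, *Rbx1*, *Nedd8*, the enzymes and factors that load ubiquitin and *Nedd8*, and the regulators *Cand1* and *Cops5*. All 16 genes were tested, and edgeR and DESeq2 called 0, with 0 at an unadjusted edgeR p under 0.05. Their median log2 fold change was 0.082, and those with the smallest p were the ubiquitin-conjugating enzyme *Ube2r2* (-0.23), the neddylation factor *Dcun1d1* (0.37) and *Uba3* (0.27). Of 16 other ligases known from muscle wasting or the sarcomere 14 were tested, with a median of -0.033. Both tools called 0 of them, and 0 were higher and 2 lower (14.3%) at an unadjusted edgeR p under 0.05, beside 9.57% and 10.8% over all genes. These were the chaperone-linked ligase *Stub1*, with 86.7, 80.3 and 65.5 CPM in *Col3a1+/G182R*, against 92.6, 96.3, 106 and 134 CPM in *Col3a1+/+* (log2 fold change -0.47, adjusted p = 0.179), and *Znrf1* (-0.37, adjusted p = 0.245), and *Trim32* was at 0.33 (adjusted p = 0.275).

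**Figure D4:**
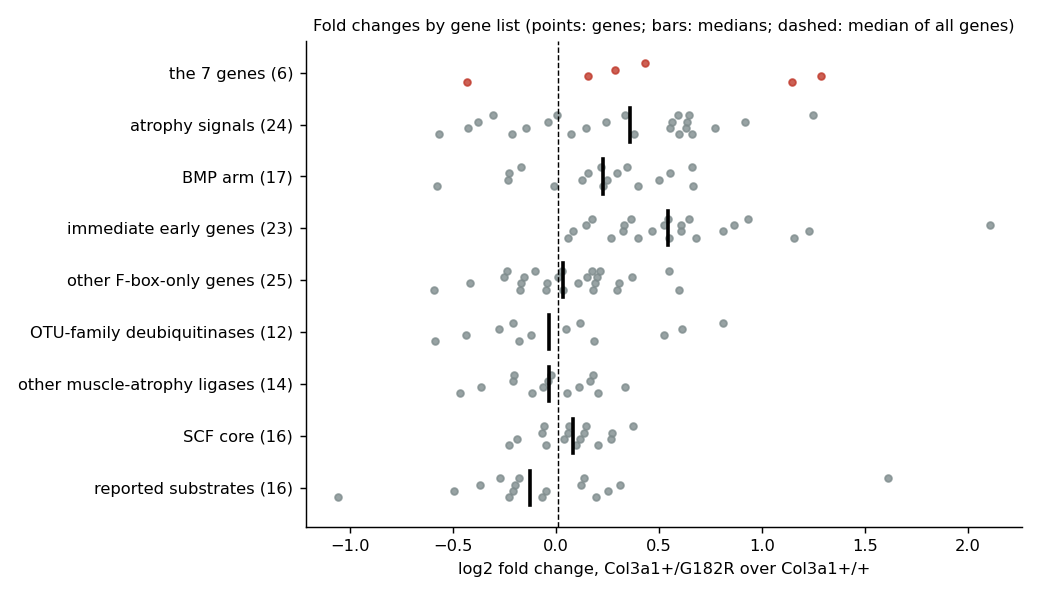
Log2 fold change (horizontal axis, positive where *Col3a1+/G182R* is higher) of the tested genes of each list, 1 point per gene, with the list's median as a bar and the median of all genes (0.0077) as a dashed line. *Otud1* and *Fbxo30* (red, 1.29 and 1.14) lie apart from the other four tested genes, and the list medians run from -0.12 (reported substrates) to 0.54 (immediate early genes).

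Genes tied to the signals that drive atrophy ligases in muscle, targets of those signals included, were more often on the higher side. Of 25 such genes (FoxO factors and their targets, glucocorticoid-responsive genes and the myostatin-activin arm) 24 were tested, with a median log2 fold change of 0.36. It was positive for 17 and negative for 7, beside 7946 and 7742 over all 15688 genes. The gene not tested, *Mstn* (myostatin), had 0 counts in every library. By edgeR 0 were called, with 10 higher (41.7%) and 0 lower at an unadjusted p under 0.05, beside 9.57% and 10.8% over all genes. DESeq2 called 4 higher and 0 lower, beside 314 and 409 over all genes. The median was 0.54 without *Col3a1+/+* mouse 1. *Irs2*, an insulin receptor substrate and FoxO target, had 32.2, 25.3 and 39.1 CPM in *Col3a1+/G182R* libraries, against 13.02, 11.02, 19.8 and 10.3 CPM in *Col3a1+/+* libraries (log2 fold change 1.25, edgeR adjusted p = 0.113, DESeq2 adjusted p = 0.000661). The genotypes did not overlap for *Irs2*.

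*Foxo3* had 75.1, 77.0 and 115 CPM in *Col3a1+/G182R* libraries, against 55.7, 62.1, 60.0 and 58.7 CPM in *Col3a1+/+* libraries, again without overlap (log2 fold change 0.59, edgeR adjusted p = 0.158, DESeq2 adjusted p = 0.0336). The mitophagy receptor *Bnip3* (log2 fold change 0.66, DESeq2 adjusted p = 0.0104) and the activin receptor *Acvr2a* (0.60, DESeq2 adjusted p = 0.0365) also passed with DESeq2 and not with edgeR (adjusted p = 0.146 and 0.158). The other FoxO factors did not share the rise of *Foxo3*: *Foxo1* was at -0.15, *Foxo4* at 0.074 and *Foxo6* at -0.57, each with overlapping values. The CPM values of 7 of the 24 (29.2%) were above every *Col3a1+/+* library and those of 0 below, beside 10.1% and 10.8% over all genes. The macrophage genes given above were on the same side, and their part was not tested. *Fbxo32* and *Trim63*, the classical targets of these signals, are given above.

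The BMP arm, which restrains *Fbxo30* in muscle, was represented by 17 tested genes of 21, with a median log2 fold change of 0.23. Both tools called 0 of them, and 4 were higher (23.5%) and 0 lower at an unadjusted edgeR p under 0.05, beside 9.57% and 10.8% over all genes. The median was 0.41 without *Col3a1+/+* mouse 1 and 0.14 without mouse 4. The effector *Smad1* had 23.8, 25.6 and 29.9 CPM in *Col3a1+/G182R* libraries, against 20.6, 21.4, 18.3 and 19.9 CPM in *Col3a1+/+* libraries (log2 fold change 0.40, adjusted p = 0.170). The common *Smad4* was at 0.35 (adjusted p = 0.190) and the type II receptor *Bmpr2* at 0.50 (adjusted p = 0.237), and none of these 3 genes overlapped between the genotypes. Across the list 5 genes (29.4%) lay above every *Col3a1+/+* library and 0 below, beside 10.1% and 10.8% over all genes.

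Of 18 genes for proteins reported as substrates of the 7 genes 16 were tested, and their median log2 fold change was -0.12. These concern transcripts, whereas a ligase acts on the protein. By edgeR 0 were called, with 2 higher and 3 lower (12.5% and 18.8%) at an unadjusted p under 0.05, beside 9.57% and 10.8% over all genes. *Irs1*, the substrate of *Fbxo40*, had 18.6, 24.6 and 31.5 CPM in *Col3a1+/G182R* libraries, against 8.34, 10.7, 6.71 and 6.77 CPM in *Col3a1+/+* libraries. Its log2 fold change of 1.61 had a standard error of 0.22 (edgeR adjusted p = 0.0615, DESeq2 adjusted p = 1.56e-07), and the genotypes did not overlap.

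*Tnni3*, the cardiac troponin I bound by *Trim63*, had 3.59, 3.07 and 3.57 CPM in *Col3a1+/G182R* libraries, against 9.68, 7.45, 4.71 and 6.50 CPM in *Col3a1+/+* libraries (log2 fold change -1.06, edgeR adjusted p = 0.153, DESeq2 adjusted p = 0.0114). Like the cardiac marker sums, it was lower in every *Col3a1+/G182R* library. Within *Col3a1+/+* it did not follow them throughout: mouse 4, with a sum of 27.23 TPM, was above mouse 3, with 32.9 TPM. The part of cardiac cells was not tested. *Irf3*, reported as a target of *Otud1*, had a log2 fold change of -0.49 and passed with neither tool (edgeR adjusted p = 0.179).

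Immediate early genes, which rise within minutes of a stress or of tissue handling, were all on the higher side. All 23 tested genes of the 24 had a positive log2 fold change, beside 7946 of 15688 over all genes. Their median was 0.54, against 0.0077 over all genes. At an unadjusted edgeR p under 0.05, 10 were higher (43.5%) and 0 lower, beside 9.57% and 10.8% over all genes. The CPM values of 8 (34.8%) were above every *Col3a1+/+* library and those of 0 below, beside 10.1% and 10.8% over all genes. By edgeR 1 was called: *Klf6*, a zinc-finger factor, had 190, 150 and 200.5 CPM in *Col3a1+/G182R* libraries, against 77.3, 87.2, 88.6 and 70.7 CPM in *Col3a1+/+* libraries (log2 fold change 1.15, standard error 0.14, edgeR adjusted p = 0.0373). The call is lost in edgeR without any 1 of the 3 *Col3a1+/G182R* mice, without *Col3a1+/+* mouse 2 or 3, or with at least 10 counts required in every library. DESeq2 called 6 higher: *Klf6*, *Ier5* (0.65), *Klf4* (0.61), *Fosl2* (0.68), *Fos* (2.11) and *Klf2* (0.81, adjusted p = 0.0496). Over all 15688 genes edgeR called 3 higher and 3 lower, and DESeq2 called 314 higher and 409 lower.

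*Fos* had 41.9, 35.5 and 13.8 CPM in *Col3a1+/G182R* libraries, against 10.6, 1.93, 10.1 and 5.41 CPM in *Col3a1+/+* libraries (edgeR adjusted p = 0.149). It was thus highest in *Col3a1+/G182R* mice 1 and 2, whereas *Fosl2* (75.2, 85.2 and 108 CPM) and *Ier5* (40.1, 45.6 and 57.3 CPM) were highest in *Col3a1+/G182R* mouse 3, the library with the highest macrophage sum. The part of macrophages in these values was not tested.

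**Figure D5:**
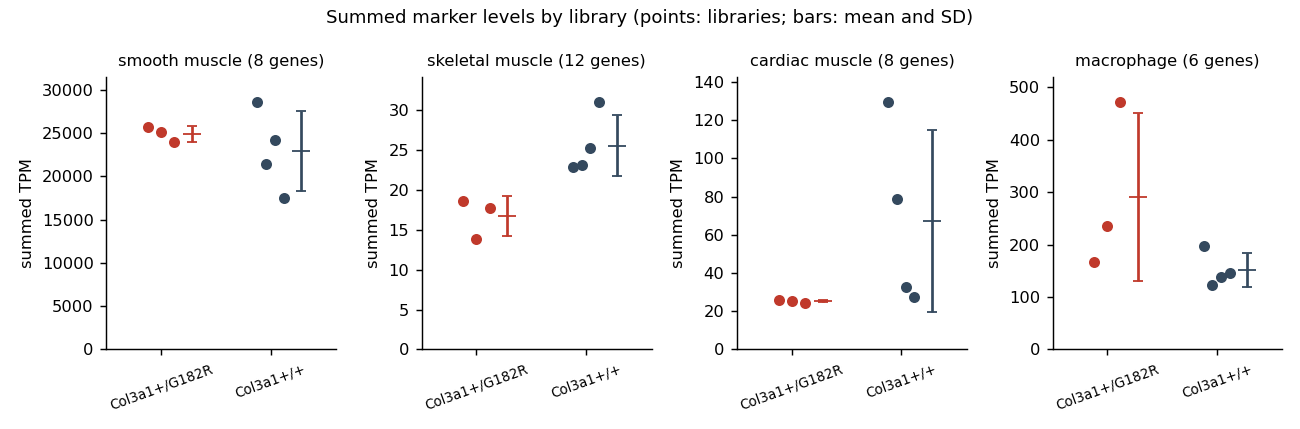
Summed TPM (vertical axes, each starting at 0) of the smooth muscle, skeletal muscle, cardiac muscle and macrophage markers by library, for *Col3a1+/G182R* (red, n = 3) and *Col3a1+/+* (blue-grey, n = 4), with mean and SD. The skeletal and cardiac sums of the *Col3a1+/G182R* libraries (up to 18.58 and 25.99 TPM) lie below those of all *Col3a1+/+* libraries, and the macrophage sums overlap, with the highest value, 472.18 TPM, in *Col3a1+/G182R* mouse 3.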

How the data were processed

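The members and gene lists were chosen with earlier results of these data known. Thoracic aortas of 3 *Col3a1+/G182R* and 4 *Col3a1+/+* mice were sequenced from a TruSeq stranded mRNA kit. Expected counts were made by the authors, per the submitters' processing notes with RSEM 1.3.1 after STAR 2.7.6a on GRCm38, and the annotation release is not given in the sources used here. The paper's methods name featureCounts and DESeq2 in place of RSEM. The deposited TPM values are RSEM's levels per length, scaled within each library, and were used for levels. The deposited gene lengths, other quantities in bases that RSEM weights by transcript abundance, were compared between genotypes. Symbols and positions came from GENCODE M21 (55227 of 55487 identifiers found, and 99.82% of 34056 single-transcript identifiers have the same length there).

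Expected counts were rounded, filtered with filterByExpr (minimum count 10, 15688 genes kept), scaled with TMM and compared with edgeR's quasi-likelihood test (edgeR 4.0.16, R 4.3.3), two-sided, with genotype as the only term and Benjamini-Hochberg adjustment over all genes (threshold 0.05). Standard errors were derived from the F statistic. DESeq2 1.42.0, limma-voom and limma-trend on log2(TPM + 1) and log2(TPM + 0.1) (limma 3.58.1), RLE factors, other filters, an effective length offset, a replicate block and leaving out each library were run as alternatives. The test was checked on simulated data. Gene lengths were compared by an exact permutation test over 35 splits, for the 4 genes whose length varies and that have reads in every library. Trim63 was excluded on seeing its counts, and the length background of 11603 genes was chosen after seeing the values. Protein identity was computed with Biopython 1.88 from the longest open reading frames of the M21 transcripts.

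Named genes are the 7 members, each list gene past the threshold with edgeR or DESeq2 plus the 3 with the smallest edgeR p, the 5 most alike genes per member (at least 1 CPM on average) by Pearson r of log2 CPM, and closest relatives by protein identity. Of the most alike genes, 1 is not reported here. The adipocyte, endothelial and fibroblast marker sums (2161.79 to 4619.84, 144.35 to 209.42 and 938.72 to 1222.37 TPM in *Col3a1+/G182R*, 2083.77 to 4157.13, 81.39 to 199.77 and 553.25 to 1301.7 TPM in *Col3a1+/+*) overlapped between genotypes. Nothing in the labels says that equal replicate numbers pair the mice, and each p measures the spread between these mice only. Depth limits the precision of low genes, and counting limits cover counting error only.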

Additional observations from a re-analysis of the deposited data

Results flagged for a closer look

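In 1 *Col3a1+/+* library, that of mouse 3, the averaged length of *Fbxo40* was 5131.97 bases, while the other 3 *Col3a1+/+* libraries were all at 5137 bases, so the gap took up the whole range of the group. Because those 3 values are tied, any deviation would do so, and the usual chance rate of about 1 in 20 does not apply. *Col3a1+/G182R* mouse 2, at 5116.32 bases, lay farther from 5137 bases. The length difference of *Fbxo40* between the genotypes was -7.27 bases with this library and -8.53 bases without it.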

How the results depend on the processing

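The number of genes called depended on the tool and on single libraries. Against 6 genes with edgeR (3 higher, 3 lower), 723 were called with DESeq2 (314 higher, 409 lower), 11 with limma-voom (8 higher), 353 without a filter on low counts (186 higher, 167 lower), 14 with the effective length offset (10 higher), and 0 where each library had to hold 10 counts or more (3046 had an unadjusted p below 0.05). With the replicate block 46 genes were called (30 higher, 16 lower). The labels do not pair mice of equal number, and the correlations of their deviations from the genotype means were -0.047, 0.015 and 0.078. These few values cannot exclude a pairing. Leaving out 1 library gave 0 to 183 calls (0 to 86 higher, 0 to 97 lower): 183 without *Col3a1+/+* mouse 1, 32 without mouse 4, and 0 without any of the other five. *Otud1* and *Fbxo30* lost their call wherever edgeR called 0 genes.

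Of 96 alternative fold changes of the 6 tested members, 92 kept their direction and either stayed short of the threshold (*Fbxo32*, *Fbxo40*, *Fbxo31*, *Fbxo21*) or, for *Otud1* and *Fbxo30*, whose calls are not counted here, moved by less than the spread between mice. The exceptions were *Fbxo30*, at 1.33 with the effective length offset, 1.38 on the log2(TPM + 1) scale and 1.39 on the log2(TPM + 0.1) scale against 1.14, and *Fbxo40*, which turned to -0.072 without *Col3a1+/G182R* mouse 3 (range without 1 library -0.072 to 0.45). The length difference of *Fbxo21* turned to -5.12 bases without *Col3a1+/+* mouse 2 (range -5.12 to 18.6). The median of the other F-box-only genes changed sign, from -0.040 to 0.16 without 1 library and -0.030 with the replicate block. Over the alternatives the median ran from 0.28 to 0.54 for atrophy signals, 0.14 to 0.41 for the BMP arm and 0.41 to 0.63 for immediate early genes, and the fold change of *Fbxo32* from 0.17 to 0.66 and of *Fbxo21* from 0.079 to 0.22. With 3 against 4 mice no adjusted p for a length can go below 0.05 unless several genes share the smallest p of 0.0286, so these lengths say nothing about stability.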
